A study of Mus musculus with 4 samples.

Results

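The endothelial cells of the neonatal mouse brain are described here from transcript counts measured in place. A cell entered this population when it held at least 20 gene counts, at least 8 counts of Cldn5, at least 1 count of Pecam1, fewer than 4 counts of Pdgfrb and fewer than 3 counts of Csf1r. Cldn5 encodes the tight-junction protein claudin-5 and Pecam1 a junctional adhesion molecule of vessel-lining cells, whereas Pdgfrb marks mural cells and Csf1r microglia and macrophages. The rule was met by 28996 of 863580 segmented cells, or of the 794833 cells with at least 20 gene counts, which are called kept cells. Coverslips 1 to 4 held 6071, 6894, 7091 and 8940 of them.

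The tissue was imaged by MERFISH, which identifies single RNA molecules of a chosen panel from barcodes read over repeated rounds of hybridization. The panel held 140 genes and 40 blank barcodes that match no probe and so measure false decoding. Coronal sections of 10 µm through the barrel cortex came from mice at postnatal day 5 (P5), and every mouse had its whiskers lesioned on the right side of the snout at P4, 24 hours earlier. Each of the 4 coverslips carried a wild-type section and a Cx3cl1(-/-) section, from male mice on coverslips 1 and 2 and female mice on coverslips 3 and 4. No column of the files ties a cell to a genotype, a hemisphere or a region. The coverslip was therefore the replicate (n = 4), and each coverslip value pools both genotypes and both hemispheres.

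Brain endothelium forms the blood–brain barrier, a layer joined by tight junctions that restricts passage between blood and tissue. In the developing brain, Wnt7a and Wnt7b from neural cells act on endothelial Frizzled receptors together with the co-activators Adgra2 and Reck, and the ligand norrin acts through Fzd4 and Lrp5. Both routes stabilise β-catenin, the product of Ctnnb1, which then works with DNA-binding proteins of the Lef1 and Tcf7 family.

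Before the endothelial values, the coverslips differed in depth. The median count per endothelial cell was 140, 123, 146 and 188 gene counts on coverslips 1 to 4, against 162, 164, 187 and 278 in the other kept cells. Coverslip 4 was thus the deepest in both populations. Blank barcodes made up 1.13% ± 0.0810 (SD, n = 4) of all counts in endothelial cells and 1.38% ± 0.147 in the other kept cells. Squares in which at least 20% of cells fell below the count minimum held up to 9.79% of the kept cells of a section, and the comparisons were repeated without these squares.

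Endothelial cells made up 3.53%, 3.56%, 3.67% and 3.79% of the kept cells on coverslips 1 to 4, a mean of 3.64% ± 0.121 (SD, n = 4). The share of the 8 sections, told apart by position, lay between 3.31% and 3.86%. Without the low-count squares described above the mean was 3.73% ± 0.0451, so the spread between coverslips was smaller there. The share moved with the gate: it was 4.20% at a minimum of 4 Cldn5 counts and 2.83% at a minimum of 16. Of 41091 kept cells with at least 8 Cldn5 counts, 10484 failed the Pdgfrb limit, 1269 the Csf1r limit and 1039 had no Pecam1 count, and a cell could fail several of these.

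The genes of the gate describe the choice and carry no test. Cldn5 averaged 32.97 ± 4.97 counts per endothelial cell, and its mean was 34.6, 25.6, 36.1 and 35.7 on coverslips 1 to 4. Pecam1 averaged 8.81 ± 2.01 counts per cell. In the other kept cells the corresponding means were 0.722 ± 0.174 and 0.408 ± 0.0682. The cells were also more elongated than others: the deposited anisotropy, a ratio of cell axes, had a median of 1.37 ± 0.0170 against 1.27 ± 0.00355 and was higher on 4 of 4 coverslips. Anisotropy above 2 was found in 5.73% ± 0.790 of endothelial cells and in 1.66% ± 0.0611 of the others. Shape did not enter the gate.

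The label was checked against Fzd4, Fzd6, Tcf7 and Lef1, the endothelial markers that the gate did not use. These were given as markers with earlier results of these data in view and are not independent evidence of the label. All 4 lay above every blank barcode on 4 of 4 coverslips. Microglial genes (0 of 6, with the gating gene Csf1r among them) and border macrophage genes (0 of 2, Mrc1 and Lyve1) lay above every blank on all coverslips neither in endothelial nor in the other kept cells, so these lists say nothing on the label. Markers of other cells were detected. The 4 measured astrocyte genes (Slc1a3, Aqp4, Aldh1l1 and Gfap) lay above every blank, with a summed level of 6.30 to 8.36 counts per endothelial cell against 6.40 to 10.0 in the other kept cells. The 4 measured excitatory-neuron genes summed to 1.34 to 2.03 counts per endothelial cell against 5.64 to 9.94 in the others, and all 4 lay above every blank in endothelial cells. So did 2 of 5 inhibitory-neuron genes, 2 of 4 genes of the oligodendrocyte lineage, and both measured mural genes, Cspg4 and the gating gene Pdgfrb. Markers of fibroblasts (Col1a1, Dcn and Lum) and the mural genes Rgs5 and Acta2 were not analysed here. The part that transcripts of adjoining cells play in the endothelial counts was not tested.

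Promoter sequences are shown first for the genes that the comparisons turn on, the nuclear effectors Lef1 and Tcf7 and the receptor Fzd4. They were searched on both strands for CTTTGA and CTTTGT, a core bound by the Lef1 and Tcf7 family, and capitals mark each match as it reads on the printed strand. The sequences are RefSeq's on GRCm38.p6 and cover the 250 bases before an annotated start. Lef1 (chr3:131110297-131224357) has 4 such windows in the table, Tcf7 (chr11:52246527-52283383) has 2 and Fzd4 (chr7:89404366-89410110) has 1.
Lef1, first start, chr3:131110047-131110296, plus strand: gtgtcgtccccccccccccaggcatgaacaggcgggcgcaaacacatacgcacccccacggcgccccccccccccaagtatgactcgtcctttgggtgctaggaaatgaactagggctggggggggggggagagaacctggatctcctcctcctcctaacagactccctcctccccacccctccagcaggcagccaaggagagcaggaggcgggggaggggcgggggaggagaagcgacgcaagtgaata
Lef1, internal start, chr3:131156044-131156293, plus strand: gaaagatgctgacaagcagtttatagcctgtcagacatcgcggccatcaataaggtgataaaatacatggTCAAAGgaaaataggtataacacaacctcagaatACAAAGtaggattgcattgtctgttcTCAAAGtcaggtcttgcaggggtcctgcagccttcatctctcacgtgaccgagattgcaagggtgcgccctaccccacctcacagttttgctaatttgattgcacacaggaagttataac
Tcf7, chr11:52283015-52283264, minus strand: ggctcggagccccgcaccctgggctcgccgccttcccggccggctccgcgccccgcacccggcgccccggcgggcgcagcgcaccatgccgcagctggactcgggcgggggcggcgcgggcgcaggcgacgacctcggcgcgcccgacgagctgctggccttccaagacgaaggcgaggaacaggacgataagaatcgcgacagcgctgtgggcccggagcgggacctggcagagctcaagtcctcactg
Fzd4, chr7:89404116-89404365, plus strand: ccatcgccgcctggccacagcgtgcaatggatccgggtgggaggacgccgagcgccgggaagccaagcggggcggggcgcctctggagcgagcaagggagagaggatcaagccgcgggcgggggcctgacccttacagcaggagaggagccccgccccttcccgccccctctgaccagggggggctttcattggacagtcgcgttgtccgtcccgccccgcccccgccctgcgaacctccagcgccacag
The internal Lef1 start had 3 matches, and the other printed windows had 0. The printed Tcf7 window, like that of the internal Lef1 start, lies inside the span of its gene given above. Its result therefore does not cover the bases before the Tcf7 gene. A match occurred in 27.6% of all 32851 windows of this length, so holding at least 1 is common. The counts do not separate transcripts from different starts. Fzd6, Adgra2 and Sox7 are named without a sequence.

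In the comparison of endothelial cells with all other kept cells, 12 genes were called higher, among them the Wnt receptor and co-receptor genes Fzd4, Fzd6, Lrp5 and Adgra2, the nuclear factors Tcf7, Lef1 and Tcf7l1, and Sox7, Id1 and Vim. The genes called lower included Meg3, Gad1, Gad2 and Cux2, which are known from neurons. Counts were summed per coverslip, scaled by summed cell volume and tested with edgeR's quasi-likelihood fit against a 2-fold difference, with coverslip as a block and Benjamini-Hochberg adjustment over the 136 genes outside the gate. A call also required that the gene exceed every blank on each coverslip in the population where it was higher. Of 136 genes, 12 were called higher (8.82%) and 33 lower (24.3%), and the median log2 difference over all tested genes was -0.72. The median stood at -0.06 with edgeR's TMM factors and at 0.11 with totals of the tested genes, and the calls became 17 higher and 18 lower, and 19 higher and 15 lower.

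Fzd6, a Frizzled receptor also known from planar cell polarity, had the largest difference of the genes higher in endothelial cells. Its level was 2.54, 2.43, 2.71 and 2.05 counts per endothelial cell on coverslips 1 to 4, and 0.159, 0.146, 0.189 and 0.205 per other kept cell. The lowest endothelial value thus lay far above the highest of the others. The log2 difference was 3.81 ± 0.08 (SE of the edgeR fit, n = 4 coverslips), with an adjusted p of 1.46e-127 by edgeR. Such p-values and SEs rest on a spread shared over genes and are not measured from 4 coverslips of Fzd6 alone. The values after ± for all log2 differences below are SEs of this kind.

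Fzd4, the receptor shared by norrin and Wnt ligands, was present at 1.24, 1.55, 1.38 and 1.75 counts per endothelial cell against 0.194, 0.213, 0.214 and 0.256. Its log2 difference was 2.75 ± 0.08. Adgra2, the co-activator of Wnt7 reception, was present at 4.41, 3.70, 4.68 and 5.56 counts per cell against 0.535, 0.429, 0.667 and 0.719, a log2 difference of 2.98 ± 0.08. The groups did not overlap for either gene. Lrp5, a co-receptor, was higher by 1.78 ± 0.08 on the log2 scale. Its paralogue Lrp6 had 0.0733 ± 0.0190 counts per endothelial cell and was above every blank on 0 coverslips, so no level could be read. Reck, the partner of Adgra2, had a log2 difference of 0.71 ± 0.08 (adjusted p = 1.00, edgeR, against a 2-fold difference), which became a call at 1.37 with TMM factors and at 1.55 with totals.

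The nuclear partners of β-catenin differed among themselves. Tcf7 had 1.52, 1.60, 1.53 and 2.48 counts per endothelial cell against 0.135, 0.152, 0.162 and 0.207, a log2 difference of 3.43 ± 0.08. Lef1 had 2.85, 2.64, 2.88 and 4.53 counts per cell against 0.354, 0.410, 0.535 and 0.768, a log2 difference of 2.67 ± 0.08. For both genes the highest endothelial value was that of coverslip 4, the deepest coverslip, where the other kept cells also had their highest value. Tcf7l1 was higher by 1.62 ± 0.08. Tcf7l2 was not called, at -0.58 ± 0.07 by volume but 0.08 with TMM factors and 0.25 with totals, so its direction turned with the scaling. Ctnnb1, which encodes β-catenin itself, was at 5.43 ± 1.199 counts per endothelial cell and 4.86 ± 1.49 per other cell, a log2 difference of 0.18 ± 0.08 that was not called.

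The other called genes named by the rule were Sox7, a SoxF transcription factor of endothelium (3.55 ± 0.08), Id1, an inhibitor of basic helix-loop-helix factors induced by BMP signals (3.47 ± 0.08), and Vim, an intermediate filament gene (2.87 ± 0.09). Sox7 had 2.17, 1.66, 2.07 and 2.97 counts per endothelial cell against 0.149, 0.151, 0.215 and 0.244. Id1 had 3.80, 4.14, 4.10 and 6.01 against 0.355, 0.338, 0.392 and 0.540. These groups did not overlap. The remaining calls were Bcl2l11, a pro-apoptotic gene of the Bcl-2 family, and Tcf3, and they are named because only 2 were left. In the other kept cells, 7 of the 12 genes (Fzd6, Sox7, Id1, Tcf7, Fzd4, Tcf7l1 and Bcl2l11) did not exceed every blank on each coverslip, so false decoding makes up an unknown part of those lower levels and of the folds against them.

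**Figure D1:**
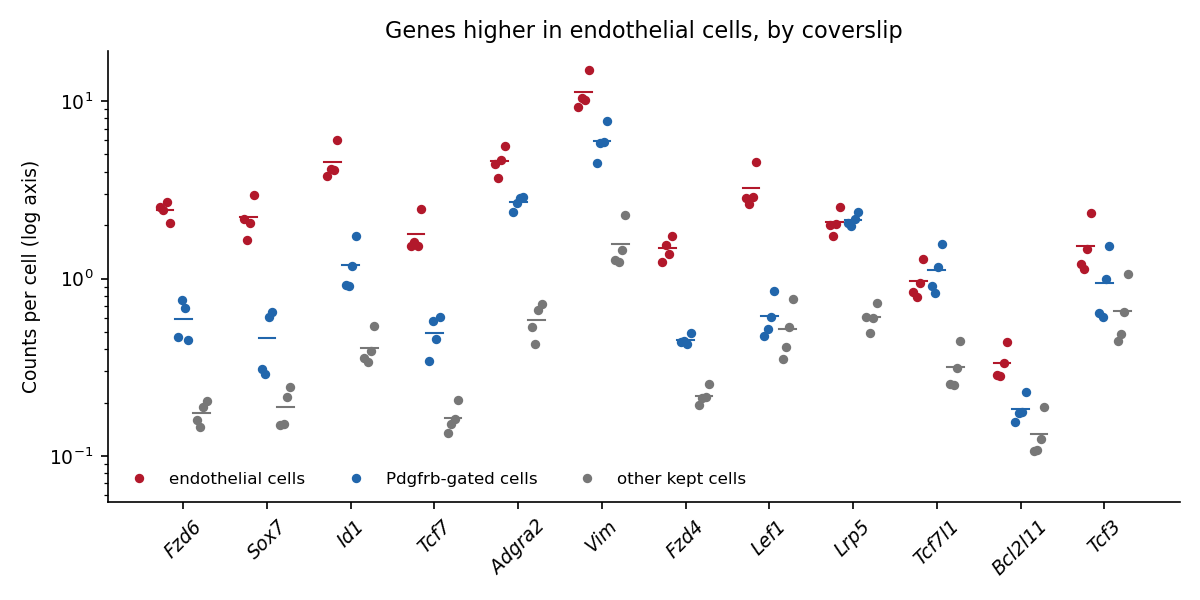
Counts per cell (log axis) of the 12 genes higher in endothelial cells than in the other kept cells. Each point is 1 of 4 coverslips and each short line the mean of 4; Fzd6 lies between 2.05 and 2.71 in endothelial cells and between 0.146 and 0.205 in the other kept cells, while Lrp5 overlaps between endothelial and Pdgfrb-gated cells.

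Among the genes lower in endothelial cells, Meg3, a long non-coding RNA abundant in neurons, had the largest difference. It had 5.06, 4.03, 6.92 and 9.08 counts per endothelial cell against 50.1, 58.5, 68.8 and 95.6, a log2 difference of -3.47 ± 0.10. Both groups were highest on coverslip 4, and they did not overlap. The next largest were Syt6, a synaptotagmin (-2.67), Bcl11b, a transcription factor of deep-layer neurons (-2.55), Gpc1, a glypican (-2.51), Gad2 (-2.45) and Gad1 (-2.41), which encode the enzymes that make GABA, and Sst, the somatostatin gene (-2.37). Peg3, an imprinted gene, followed at -2.32, Nlgn2, an adhesion gene of inhibitory synapses, at -2.19, and Cux2, a transcription factor of upper cortical layers, at -2.19. Cx3cl1, the fractalkine gene deleted in 1 section of each coverslip, was at 0.753 ± 0.193 counts per endothelial cell and 3.16 ± 0.649 per other cell, a log2 difference of -2.08 ± 0.08. Syt6 and Sst did not exceed every blank on each coverslip in endothelial cells, so their differences are set against a level that includes false decoding.

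Of 19 measured ligand and secretion genes, 4 exceeded every blank on each coverslip in endothelial cells. Wnt7a was at 0.133 ± 0.0478 counts per cell and not above every blank, in either population, on each coverslip, so its log2 difference of -1.75 was not called. Wnt7b (-1.69 ± 0.08) and Porcn, the acyltransferase that prepares Wnt proteins for secretion (-1.76 ± 0.09), were called lower, Porcn from an endothelial level that was not above every blank on each coverslip. Both calls ended with TMM factors and with totals, at -1.03 and -0.85 for Wnt7b and -1.10 and -0.92 for Porcn. Wls, the carrier of Wnt proteins to the cell surface, was at 0.57 ± 0.08 and not called by volume, and was called higher at 1.23 and 1.40 under those scalings. Apoe, the apolipoprotein E gene, was at 11.6 ± 2.82 counts per endothelial cell against 9.23 ± 2.99, and its difference of 0.35 ± 0.08 became a call at 1.18 with totals.

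By pathway role, 4 of the 18 measured Wnt receptors and co-receptors were called higher (Fzd4, Fzd6, Lrp5 and Adgra2) and 2 lower (Fzd3 and Fzd9), beside 8.82% higher and 24.3% lower over all 136 genes, with a median log2 difference of -0.54 beside -0.72 over all 136 genes. Of 14 genes that act inside the cell, 3 were higher (Tcf7, Lef1 and Tcf7l1) and 4 lower (Dvl2, Apc, Gsk3b and Btrc), with a median of -0.48. Among 19 ligand and secretion genes 0 were higher and 2 lower, with a median of -1.27. Of 7 secreted antagonists 0 were higher and 1 lower (Sfrp1), and of 10 glypicans and syndecans 0 were higher and 4 lower (Gpc1, Gpc5, Gpc6 and Sdc3). With totals, the receptor calls were 6 higher and 0 lower, those inside the cell 3 and 0, and the median of these lists turned to 0.29 and 0.35, so the lower calls of both lists ended while Fzd4, Fzd6, Lrp5, Adgra2, Tcf7, Lef1 and Tcf7l1 were called higher under each scaling. The lists were chosen with earlier results of these data known, and their counts are descriptions. A list of 21 Wnt pathway, barrier and fractalkine genes was looked up in each comparison. Of its 18 measured genes, 8 were higher here, 3 lower and 7 not called, the last between -1.75 and 0.71 on the log2 scale, with the co-receptor Lrp6 at -0.85 ± 0.10.

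The share of cells with a transcript was also measured. Where cells were thinned to 50 counts so that depth was equal, Adgra2 was detected in 79.9% ± 0.953 of endothelial cells, Lef1 in 67.0% ± 2.76, Fzd6 in 59.4% ± 9.10, Sox7 in 53.1% ± 2.51, Tcf7 in 49.5% ± 4.16 and Fzd4 in 43.2% ± 4.97 (SD, n = 4). In thinned other kept cells the same genes were detected in 10.2%, 8.40%, 3.79%, 4.08%, 3.59% and 4.91%. The shares of cells with a count before thinning were 92.5%, 82.8%, 78.4%, 72.5%, 71.0% and 64.3% in endothelial cells. Thinning used 24989 of the 28996 endothelial cells, since the shallower cells were left out. The spread between coverslips was widest for Fzd6.

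Within the population, the levels followed the Cldn5 count that set the gate. Levels were taken per 1000 counts of the 136 tested genes and are given without a test. Just outside the gate, at 6 to 7 Cldn5 counts, Fzd6 was at 4.86 ± 2.39, Lef1 at 7.51 ± 2.17 and Meg3 at 159 ± 29.6. Just inside, at 8 to 9 counts, they were at 6.24 ± 3.11, 8.94 ± 2.48 and 148 ± 44.3, within the SD of the cells just outside. That SD is between coverslips, and the same coverslips gave both bins, so it does not measure the change between bins. At 32 or more Cldn5 counts, the 12501 cells had 24.2 ± 5.63 for Fzd6, 29.8 ± 2.27 for Lef1 and 20.8 ± 1.89 for Meg3. Cells near the threshold thus held more of the neuronal transcript and less of the endothelial ones than cells of high Cldn5. Apoe was at 83.8 ± 6.69, 87.9 ± 7.28 and 92.3 ± 16.9 for 6 to 7, 8 to 15 and 16 to 31 Cldn5 counts and at 84.9 ± 12.9 for 32 or more, values that overlap in their spread. Slc1a3, the astrocyte glutamate transporter gene, was at 23.8 ± 4.35 just outside the gate and 13.9 ± 2.39 at 32 or more counts.

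**Figure D2:**
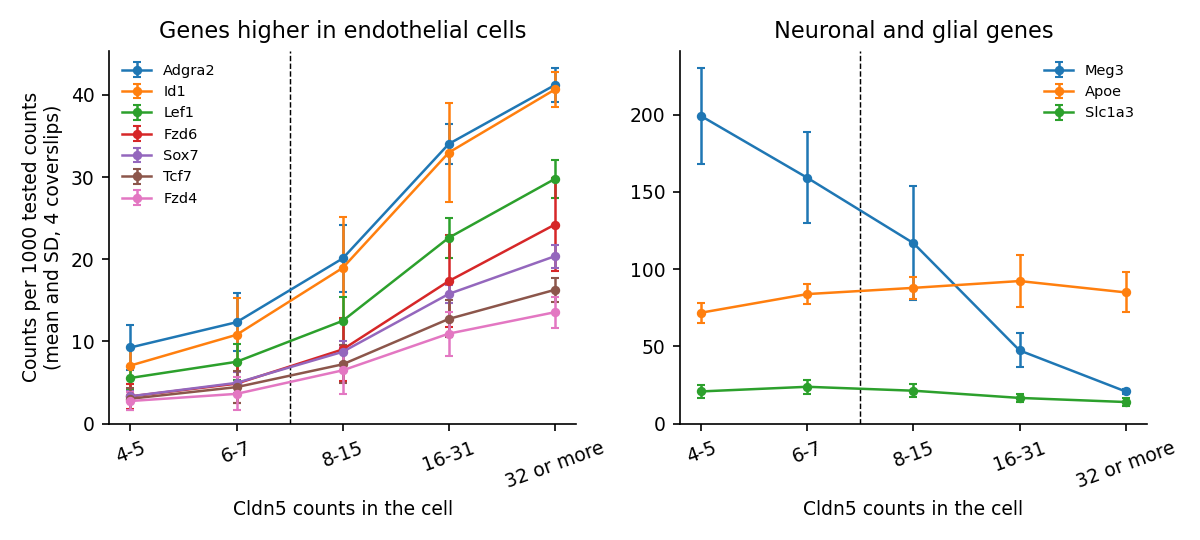
Counts per 1000 counts of the tested genes (linear axis, mean and SD of 4 coverslips) in cells grouped by their Cldn5 count, with the gate's minimum of 8 as a dashed line. The 7 genes on the left are higher in each bin than in the one before it, whereas Meg3 falls from 199 in cells with 4 to 5 Cldn5 counts to 20.8 in cells with 32 or more.

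The other cells of the vessel wall were approached with cells of at least 4 Pdgfrb counts, fewer than 4 Cldn5 counts and fewer than 3 Csf1r counts. These 12261 Pdgfrb-gated cells are named by that rule because they also carried astrocyte genes: the 4 measured astrocyte markers summed to 16.9 to 38.3 counts per cell across coverslips, against 6.30 to 8.36 in endothelial cells. The 6 genes higher in endothelial cells included both Frizzled receptors and both nuclear effectors of the marker list. Of 136 genes, 6 were called higher (4.41%) and 38 lower (27.9%) by the same edgeR test, with a median log2 difference of -0.50. With TMM factors the median was 0.06 and the calls 12 higher and 17 lower, and with totals 0.02 and 12 and 21. Endothelial sums enter this comparison and the one with all other kept cells, so the results are given side by side and are not independent.

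Lef1 was at 0.472, 0.520, 0.607 and 0.854 counts per Pdgfrb-gated cell on coverslips 1 to 4, below the 2.64 to 4.53 of endothelial cells, a log2 difference of 2.52 ± 0.13 (adjusted p = 7.02e-29, edgeR). Sox7 was higher in endothelial cells by 2.45 ± 0.13, Fzd6 by 2.20 ± 0.13, Id1 by 2.08 ± 0.13, Tcf7 by 1.98 ± 0.12 and Fzd4 by 1.83 ± 0.12. Each was higher on 4 of 4 coverslips. Adgra2, at 2.37, 2.66, 2.85 and 2.90 counts per Pdgfrb-gated cell, was higher in endothelial cells on 4 of 4 coverslips, but its difference of 0.88 ± 0.13 was not past the 2-fold threshold by volume and was called at 1.45 with TMM factors. Lrp5, at 2.14 ± 0.166 counts per Pdgfrb-gated cell and 2.08 ± 0.333 per endothelial cell, differed by 0.08 ± 0.12, which turned to -0.37 with a minimum of 8 Pdgfrb counts. Reck was at 0.40 ± 0.12 and not called. Ctnnb1, at 0.83 ± 0.14 by volume, was called at 1.39 with TMM factors.

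Among the genes lower in endothelial than in Pdgfrb-gated cells, Cspg4 had the largest difference, at -2.90 ± 0.13. It encodes the NG2 proteoglycan of pericytes and oligodendrocyte precursors, and averaged 0.378 ± 0.0883 counts per endothelial cell against 3.05 ± 0.471. The Frizzled receptor Fzd2 (-2.75), the formin gene Daam2 (-2.43), the secreted Wnt antagonist Sfrp1 (-2.36) and Slc1a3 (-2.26) followed. Wnt7a was at -2.13, the glypicans Gpc6 and Gpc5 at -2.07 and -1.94, and the transcription factors Sox2 and Gli3 of neural progenitors and astrocytes at -2.03 and -1.99. Fzd2, Sfrp1, Wnt7a and Gli3 did not exceed every blank on each coverslip in endothelial cells, so their endothelial levels and the folds against them include false decoding. With a minimum of 8 Pdgfrb counts, 19 genes were lower in place of 38. The calls of Slc1a3 (-0.78), Sox2 (-0.60), Wnt7a (-0.59) and Gpc5 (-0.24) then ended. Wnt7b was called at -1.18 ± 0.12 (adjusted p = 0.0492, edgeR), a call that 8 alternatives ended, the loss of coverslip 3 or 4 (-1.12 each) among them. Apoe missed the threshold at -1.19 ± 0.17 (adjusted p = 0.110, edgeR), and passed it at -1.29 without coverslip 2, at -1.26 without the low-count squares and at -1.45 with Pdgfrb and Csf1r at 0. Of the 18 genes looked up in each comparison, 5 were higher, 2 lower and 11 not called, the last between -1.19 and 0.88. Over all 136 genes, 4.41% were higher and 27.9% lower. Cx3cl1 was among the genes not called, at 0.02 ± 0.12, with differences above 0 on both male coverslips and below 0 on both female ones. Tcf7l1 (-0.07 ± 0.12), Lrp6 (-0.39 ± 0.13) and Porcn (-0.48 ± 0.12) were not called either and turned positive with TMM factors, and Tcf7l2 (0.19 ± 0.12) and Wls (-0.955 ± 0.12) did not pass the threshold. Wls passed it with a minimum of 8 Pdgfrb counts, at -1.61.

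By role, 2 of 18 Wnt receptors and co-receptors were called higher (Fzd4 and Fzd6) and 8 lower, beside 4.41% higher and 27.9% lower over all 136 genes, 2 of 14 genes inside the cell higher (Tcf7 and Lef1) and 1 lower (Daam2), and 0 of 19 ligand and secretion genes higher and 5 lower. Of 10 glypicans and syndecans, 0 were higher and 6 lower, with a median log2 difference of -1.71 beside -0.50 over all 136 genes. With TMM factors the receptor calls were 3 higher and 3 lower, those of ligands 0 and 1, and those of glypicans and syndecans 0 and 5.

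A larger share of endothelial than of other kept cells had an endothelial cell or a cell of another gate nearby. Positions are in the coordinate units of the files, whose length is not stated there. Another endothelial cell lay within 15 units of 37.3%, 35.3%, 34.8% and 37.3% of endothelial cells on coverslips 1 to 4, and an endothelial cell lay that close to 6.52%, 6.89%, 6.96% and 7.92% of the other kept cells. A Pdgfrb-gated cell was within 15 units of 11.8% ± 0.768 of endothelial cells and 3.53% ± 0.848 of other cells, and a Csf1r-gated cell within 15 units of 8.11% ± 0.820 and 3.57% ± 0.727. For Aqp4-gated cells, chosen by the astrocyte genes Aqp4 and Slc1a3, the shares were 17.0% ± 2.33 and 13.6% ± 2.94, a smaller difference of 3.35 ± 1.37 percentage points. Each difference had the same direction on 4 of 4 coverslips, with an exact two-sided sign-flip permutation p of 0.125, the smallest that 4 coverslips can give. The median distance from endothelial cells, averaged over coverslips, was 66.1 units to a Pdgfrb-gated, 57.6 to a Csf1r-gated and 28.6 to an Aqp4-gated cell. From other kept cells it was 79.8, 70.9 and 32.4. Distances are between cell centres, and a cell was never counted as its own neighbour.

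**Figure D3:**
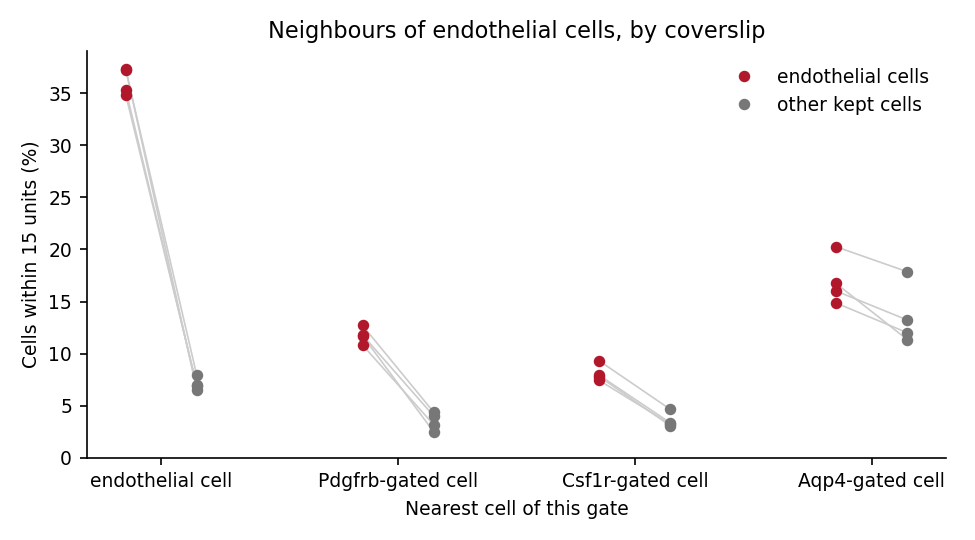
Percentage of endothelial cells and of other kept cells that lie within 15 coordinate units of the nearest cell of each gate; each point is 1 of 4 coverslips and grey lines join values of a coverslip. The endothelial share is the higher on all 4 coverslips for each gate, and the groups overlap only for Aqp4-gated cells.

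At the outer edge of the sections, endothelial cells were more frequent and differed in composition. Their share of kept cells was 14.3% ± 0.943 within 50 units of the edge, 5.82% ± 0.562 from 50 to 100 units and 2.84% ± 0.118 from 100 to 200 units. Cells within 100 units (n = 4161) were compared with cells over 300 units deep (n = 21305), with edgeR's quasi-likelihood test against no difference, TMM factors and coverslip as a block. Their shares were 9.76% ± 0.731 and 3.40% ± 0.181. Near the edge, 33 of 136 genes were called higher (24.3%) and 34 lower (25%), together 49.3% of the genes tested, and scaled by cell volume 36 and 24. With Pdgfrb and Csf1r at 0 in the gate there were 23 and 26. The same difference in all cells outside the gate is given beside each value, with no test.

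Wnt4, a ligand gene, had 10.1, 10.4, 7.71 and 6.64 counts per 1000 tested counts in endothelial cells near the edge on coverslips 1 to 4, and 2.45, 2.89, 1.93 and 1.93 in deep ones. The classes did not overlap, and the log2 difference was 1.94 ± 0.06 (adjusted p = 2.11e-06, edgeR), beside 0.77 in cells outside the gate. Gpc3, a glypican, rose by 1.89 ± 0.09, beside 1.47 outside. Col4a6, a basement membrane collagen gene, rose by 1.84 ± 0.08 beside 1.52, the Frizzled receptor Fzd7 by 1.52 ± 0.07 beside 1.02, and Tmem119 by 1.47 ± 0.09 beside 1.59. These 5 genes were above every blank near the edge and not in the deep class, so their deep levels include false decoding. Tmem119 is among the microglial markers, whose summed level was 0.950 to 1.39 counts per endothelial cell near the edge and 0.449 to 0.729 deep. Among the 5 tested microglial markers 1 was called higher, beside 24.3% of all 136 genes. The border macrophage markers Mrc1 and Lyve1 summed to 0.429 to 0.573 near the edge and 0.142 to 0.168 deep, without overlap. They differed by 1.83 ± 0.09 and 1.498 ± 0.09 and were not called, since neither exceeded every blank on each coverslip in either class. With Pdgfrb and Csf1r at 0 in the gate, the calls of Col4a6 (1.503) and Tmem119 (1.30) ended because they no longer exceeded every blank on each coverslip. The part of adjoining cells was not tested.

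The endothelial Wnt genes did not move together at the edge. Fzd6 had 15.5, 16.4, 16.7 and 9.68 counts per 1000 tested counts near the edge and 21.5, 23.4, 21.1 and 12.1 deep, lower near the edge on 4 of 4 coverslips. Its log2 difference was -0.39 ± 0.05 (adjusted p = 0.000356, edgeR), while cells outside the gate had 1.05, and the call ended when scaled by volume (-0.25, adjusted p = 0.0596). Lef1 (-0.03 ± 0.04), Tcf7 (-0.01 ± 0.05) and Fzd4 (0.11 ± 0.05) were not called, and the first 2 turned positive when scaled by volume, at 0.11 and 0.13. The median over all 136 genes moved with that scaling from 0.02 to 0.15, and Lef1 and Tcf7 stayed below it. Fzd4 became a call at 0.24 with Pdgfrb and Csf1r at 0. Both classes pool zones of unlike level. Lef1 was at 21.6 ± 2.63 counts per 1000 tested counts within 50 units and at 27.9 ± 2.11 from 50 to 100 units. It was at 25.2 ± 1.47 from 300 to 600 units and at 24.3 ± 2.12 beyond 1200 units. Tcf7 was at 12.1 ± 1.38, 15.4 ± 1.17, 15.7 ± 1.02 and 12.1 ± 1.42 in these zones. The zones were not tested. Without the replicate block the calls of Fzd6 (-0.41), Adgra2 (0.16) and Reck (0.33) ended. Adgra2 rose by 0.16 ± 0.05 (adjusted p = 0.0302, edgeR), a call that ended without coverslip 1 (0.13) or coverslip 4 (0.12) and with a minimum of 16 Cldn5 counts (0.05). Reck rose by 0.32 ± 0.07 and Tcf7l1 by 0.52 ± 0.07. Tcf7l2 fell, at -0.91 ± 0.05, and Ctnnb1, at -0.26 ± 0.05, lost its call when scaled by volume (-0.12).

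Of 18 receptor and co-receptor genes, 7 rose near the edge (Fzd2, Fzd7, Fzd10, Ror2, Ptk7, Adgra2 and Reck) and 3 fell (Fzd1, Fzd3 and Fzd6), beside 24.3% and 25% over all 136 genes. Of 19 ligand and secretion genes, 3 rose (Wnt4, Wnt5a and Wls, the last by 0.55 ± 0.05) and 1 fell (Wnt7b, at -0.75 ± 0.07). Of 10 glypicans and syndecans, 6 rose and 3 fell. The median over these lists was 0.09, 0.05 and 0.31, beside 0.02 over all 136 genes. Scaled by volume, Fzd1 was the only one of the 3 receptors to be called lower. Of the 18 genes looked up in each comparison, 4 rose, 5 fell and 9 were not called, the last between -0.54 and 0.15. Lrp5 (0.06 ± 0.06), Lrp6 (0.04 ± 0.12), Apoe (0.15 ± 0.08) and Id1 (-0.18 ± 0.09) were not called. Apoe became a call by volume (0.29), with limits of 50 and 300 units (0.39), among genes above all blanks (0.14) and without coverslip 3 (0.19). Id1 became a call without coverslip 1 (-0.24) or 4 (-0.28), at 16 or more Cldn5 counts (-0.28) and among genes above all blanks (-0.19).

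The genes that fell most in endothelial cells near the edge were Sst, by 2.83 ± 0.30 on the log2 scale, Slc17a6, a glutamate transporter gene, by 1.64 ± 0.11, Meg3 by 1.54 ± 0.10, Bcl11b by 1.49 ± 0.11 and Gad1 by 1.10 ± 0.10. At 16 or more Cldn5 counts, Sst (-2.68) and Slc17a6 (-1.63) lost their calls because they no longer exceeded every blank on each coverslip in deep cells. Outside the gate the same genes differed by -1.84, -0.63, -0.60, -0.995 and -0.10. Cx3cl1 differed by -1.03 ± 0.08, beside -0.62. The 5 inhibitory-neuron markers summed to 0.556 to 0.981 counts per endothelial cell near the edge and 1.05 to 2.45 deep. Of these 5, 3 were called lower, beside 25% of all 136 genes. The 4 astrocyte markers summed to 10.3 to 15.99 near the edge and 5.39 to 8.29 deep. Of these 4, 3 were called higher, beside 24.3% of all 136 genes. What share of these counts came from surrounding cells was not tested.

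**Figure D4:**
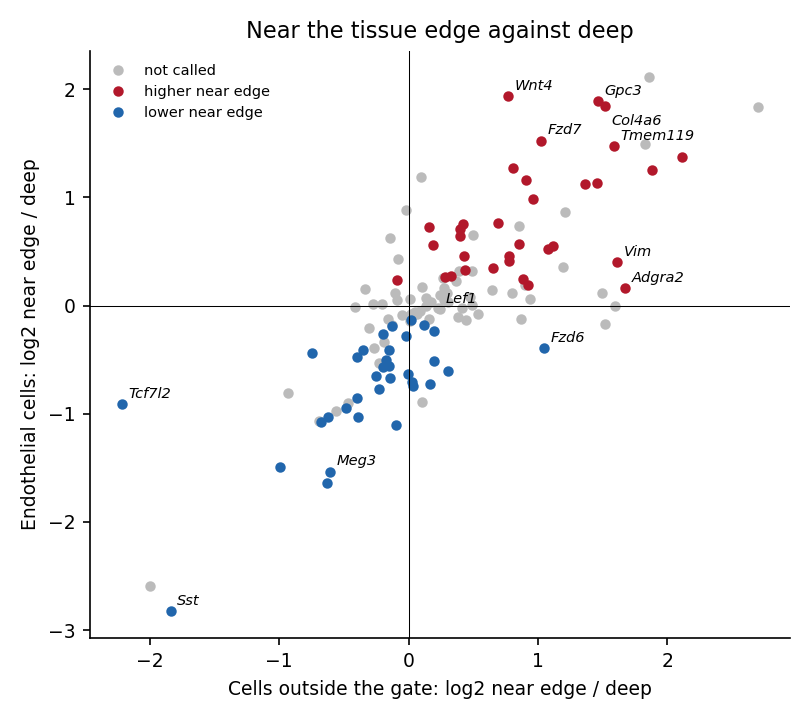
Log2 difference between cells near the outer edge and deep cells for 136 genes, in endothelial cells (vertical axis) and in all cells outside the gate (horizontal axis); colours mark calls in endothelial cells. Endothelial values use TMM factors and the others totals of the tested genes. Wnt4 lies at 1.94 and 0.77, and Fzd6, at -0.39 and 1.05, is lower in endothelial cells but higher in the others.

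**Figure D5:**
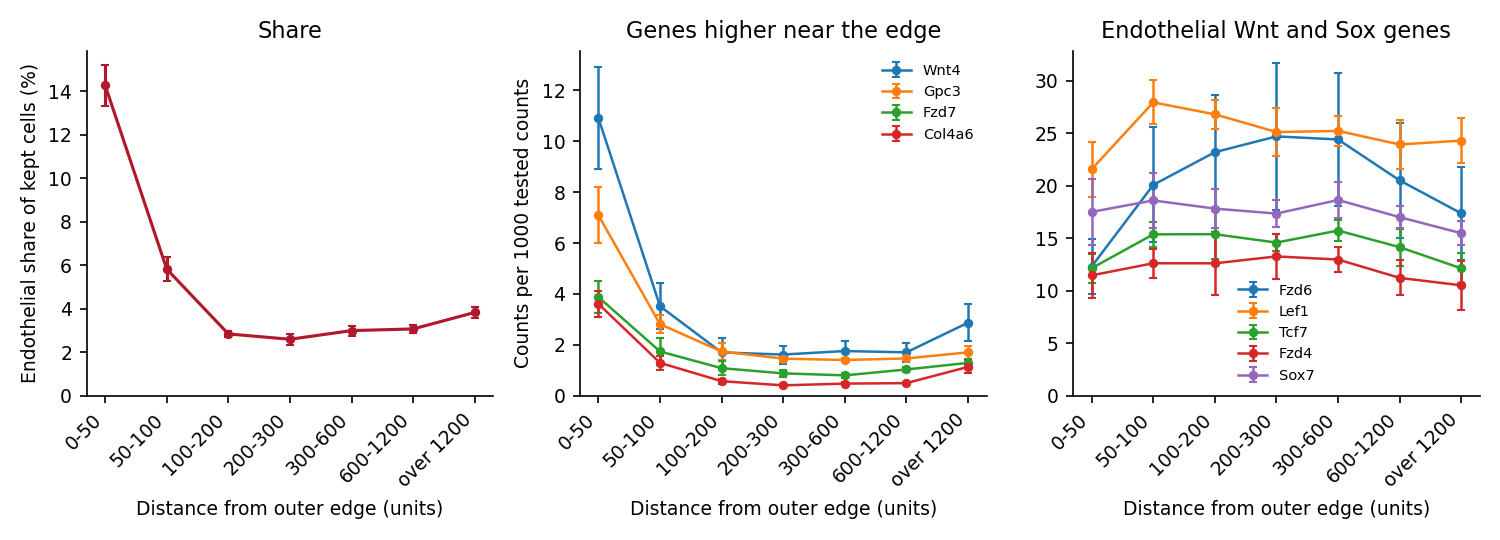
Endothelial share of kept cells (%) and counts per 1000 counts of the tested genes in endothelial cells, by distance from the outer edge in coordinate units (linear vertical axes, mean and SD of 4 coverslips). The share falls from 14.3% to 2.60% at 200 to 300 units, Wnt4 falls from 10.9 to 1.62 over the same distance, and Fzd6 is at 12.3 within 50 units and 24.7 at 200 to 300 units.

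The profile over distance had a second feature at depth. Beyond 1200 units, where 10660 of the endothelial cells lay, their share was 3.83% ± 0.250, above the 3.07% ± 0.185 from 600 to 1200 units. Wnt4 was at 2.87 ± 0.717 counts per 1000 tested counts there and at 1.71 ± 0.365 from 600 to 1200 units, and Col4a6 at 1.14 ± 0.256 and 0.497 ± 0.0451. Fzd6 was at 17.4 ± 4.41 and 20.5 ± 5.47, with SDs between coverslips that overlap and do not measure the change within a coverslip. These values were not tested.

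Surroundings were used in place of regions, which the files do not name. An endothelial cell had Cux2-rich surroundings, as in upper cortical layers, when the cells outside the gate within 100 units averaged at least 2 times the section's mean of Cux2 and less than its mean of Slc17a6, and Slc17a6-rich surroundings in the mirror case. The first class held 1530 endothelial cells and the second 3278, out of 28932 inside the sections. The classes were not matched for distance from the outer edge, and the part of that distance in their differences was not tested. In Cux2-rich surroundings 13 of 136 genes were called higher (9.56%) and 21 lower (15.4%) by edgeR with TMM factors. With totals the median over all genes moved to 0.20 and the calls to 32 higher and 11 lower, and by volume to 0.16 and to 23 and 11. Cux2 and Slc17a6 defined the classes and are not results of it. Values for cells outside the gate, given beside the endothelial ones, were again scaled by totals and not by TMM factors.

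The receptor genes Fzd4 (0.11 ± 0.06), Fzd6 (-0.08 ± 0.06) and Adgra2 (0.08 ± 0.05) and the effector Tcf7 (0.05 ± 0.05) were not called between the surroundings. Fzd4 and Adgra2 became calls with totals, at 0.30 and 0.28, and Tcf7 at 0.24, as did Lrp5 (0.30), Reck (0.36) and Tcf7l1 (0.32), and Fzd6 turned positive with totals and by volume, at 0.12 and 0.08. Lef1 had 25.3, 26.1, 23.2 and 27.3 counts per 1000 tested counts in Cux2-rich and 24.98, 27.2, 22.6 and 28.8 in Slc17a6-rich surroundings, which overlap and differ in direction between coverslips on this scale. With TMM factors it was called lower, at -0.22 ± 0.05 (adjusted p = 0.0118, edgeR), beside -1.99 in cells outside the gate, and the call ended by volume (-0.07), with totals (-0.02) and without coverslip 4 (-0.19). The calls of Id1 (-0.29 ± 0.08), Ctnnb1 (-0.18 ± 0.05) and Cx3cl1 (-0.40 ± 0.13) ended under the same 2 scalings, and Ctnnb1 turned to 0.01 with totals. Leaving out 1 coverslip also ended the call of Id1 (coverslip 2 or 3, at -0.19 and -0.29), of Ctnnb1 (1 or 4, at -0.17 and -0.18) and of Cx3cl1 (1, 2 or 3, at -0.35, -0.30 and -0.36). The call of Wls (0.26 ± 0.09) ended without coverslip 1 (0.26), 2 (0.23) or 3 (0.24).

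Larger differences lay outside these Wnt genes. Tcf7l2, a β-catenin partner abundant in thalamic neurons, had 7.74, 8.14, 8.07 and 9.13 counts per 1000 tested counts in endothelial cells of Cux2-rich surroundings and 32.1, 36.9, 40.2 and 48.3 in those of Slc17a6-rich surroundings. The classes did not overlap, and the log2 difference was -2.44 ± 0.08 (adjusted p = 3.23e-07, edgeR). In the cells outside the gate it was -5.43. Meg3 (-1.33 ± 0.11 beside -0.58 outside), Sox2 (-1.30 ± 0.13 beside -1.19), Peg3 (-1.07 ± 0.07 beside -0.77), Fzd10 (-0.94 ± 0.12 beside -1.58) and Apoe (-0.67 ± 0.07 beside -0.73) were also lower. Of the 18 genes looked up in each comparison, 1 was higher, 6 lower and 11 not called, the last between -0.61 and 0.16. Over all 136 genes, 9.56% were higher and 15.4% lower. Lrp6 (-0.01 ± 0.15), Porcn (-0.15 ± 0.14) and Wnt7b (0.04 ± 0.15) were among those not called and turned sign under other settings. The part of transcripts from surrounding cells in these values was not tested.

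Gfap, the intermediate filament gene of astrocytes, had 24.6, 30.6, 12.9 and 16.9 counts per 1000 tested counts in Cux2-rich and 4.96, 5.91, 2.64 and 3.77 in Slc17a6-rich surroundings. It was the higher on every coverslip, by 2.09 ± 0.07 on the log2 scale (adjusted p = 3.23e-07, edgeR), beside 0.55 outside the gate. Aqp4, the astrocyte water channel gene, was higher by 1.03 ± 0.14 beside 0.53, Gpc3 by 0.91 ± 0.17 beside 0.29, Rorb, a transcription factor of layer 4 neurons, by 0.85 ± 0.10 beside 2.09, and Gad1 by 0.64 ± 0.16 beside 0.47. At a radius of 200 units the calls of Rorb (0.32) and Gad1 (0.34) ended. That of Gad1 also ended without the replicate block (0.71), and that of Gpc3 with Pdgfrb and Csf1r at 0 (0.58). At 16 or more Cldn5 counts, Gad1 (0.50) and Gpc3 (0.91) lost their calls because they no longer exceeded every blank on each coverslip. The 4 astrocyte markers summed to 5.63 to 8.40 counts per endothelial cell in Cux2-rich and 2.71 to 4.46 in Slc17a6-rich surroundings. Of these 4, 3 were called higher and 1 lower, beside 9.56% and 15.4% of all 136 genes. Mrc1 and Lyve1 summed to 0.248 to 0.320 and 0.101 to 0.139, and neither was called. Their part in the result was not tested.

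Between female and male coverslips, 0 of 136 genes were called higher (0%) and 0 lower (0%) in endothelial cells by edgeR, and 0 by DESeq2. At an unadjusted p under 0.05 there were 10 genes by edgeR and 14 by DESeq2. The female and male values did not overlap for 39% of the 136 genes. Where the groups do not differ, 2 values against 2 lack overlap with a probability of 0.333. Fzd6 had a log2 difference of -0.41 ± 0.18 (female over male, adjusted p = 0.547, edgeR). The 18 genes looked up in each comparison lay between that value and 0.35, the value of Wnt7a, and 0 of them were called. Cx3cl1 was at 0.09 ± 0.19, and the signs of Fzd4, Adgra2, Reck, Tcf7, Lef1, Ctnnb1, Cx3cl1 and Id1 each turned when 1 coverslip was left out. Wnt4, named after its value was seen, had the smallest p, with -0.61 ± 0.20 (adjusted p = 0.323, edgeR). With 2 coverslips of each sex, an exact permutation test of a single value cannot give less than 0.333, and sex cannot be told apart from what else differed between these coverslips.

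The endothelial pattern was also read in the 8 sections, without assigning a genotype to any. Adgra2 lay between 31.9 and 41.4 counts per 1000 tested counts, a ratio of 1.30 between the highest and the lowest section. Lef1 lay between 21.1 and 28.8, Tcf7 between 10.995 and 16.3, Sox7 between 12.9 and 19.8, Fzd4 between 8.90 and 17.6 and Fzd6 between 10.9 and 23.6. Cx3cl1 varied the most of these, from 1.31 to 9.93, a ratio of 7.57. Sections of both genotypes are in this range, and no section was placed in a genotype by its level. The lowest section had 0.152 Cx3cl1 counts per endothelial cell, while the highest blank of a coverslip was at 0.198 to 0.301. The ratio for Cx3cl1 is thus taken over a level that includes false decoding.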

How the data were processed

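The deposited files hold counts of decoded transcripts per segmented cell, with no normalization by the authors found in the values, which are whole numbers of 0 or more. The same deposited files give other measures of each cell: the volume, the position of its centre and its shape, with no unit in the file headers. Which decoding and segmentation tools were used is not stated in the labels or headers. Gene symbols were set to 1 style of capitals.

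Cells with fewer than 20 gene counts were left out. To find sections, the plane was divided into a grid (squares 100 units wide, occupied at 4 or more cells), and the 2 largest joined areas of a coverslip were taken. Endothelial, Pdgfrb-gated, Aqp4-gated (Aqp4 and Slc1a3 at least 4, Cldn5 below 4, Csf1r below 3) and Csf1r-gated cells (Csf1r at least 3, Cldn5 below 4) were chosen by raw counts. Counts were summed per coverslip and class and fitted with edgeR 4.0.16 (R 4.3.3), with the settings stated beside each comparison. The 4 gating genes were left out of the sums and tests. DESeq2 1.42.0 was an alternative, and the edgeR script was tested on simulated data. Distances were compared with exact sign-flip permutation tests. The labels do not say how many animals the sections came from, so p-values refer to coverslips and not to animals. The edgeR p-values also rest on a spread shared over genes.

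The population, the lists and the tests were chosen with earlier results of these data known. In the comparisons with other kept and with Pdgfrb-gated cells, the genes named were the 10 called genes with the largest and the 10 with the smallest log2 difference, and in the others the 5 and 5. Members of a list of 21 Wnt pathway, barrier and fractalkine genes, of which 18 were measured, were added in every comparison. Genotype and hemisphere were not assigned and are not analysed here.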

Additional observations from a re-analysis of the deposited data

Results flagged for a closer look

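In 6 of 121 sets of 4 coverslips that were checked, the lowest coverslip stood apart from the other 3 by Dixon's test. Chance gives about 1 in 20 such sets. In the comparison with all other kept cells these were Meg3, at -3.89 on the log2 scale with a median of -3.36 over the coverslips, Gad1, at -2.69 with a median of -2.32, and Wnt7b, at -1.88 with a median of -1.63. In the comparison with Pdgfrb-gated cells it was Cspg4, at -3.39 with a median of -2.78. All 4 of these low values came from coverslip 2. Near the edge of the tissue they were Gpc3, at 1.57 with a median of 2.00, on coverslip 4, and Slc17a6, at -2.05 with a median of -1.55, on coverslip 1.

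Among the named genes that were checked, 3 had log2 differences of opposite sign on male and female coverslips. Against Pdgfrb-gated cells, Cx3cl1 had a mean of 0.29 in males and -0.24 in females. Near the edge, Lrp6 had a mean of -0.24 in males and 0.24 in females, and Tcf7 of -0.064 and 0.048. Over all endothelial cells, Lrp6 did not exceed every blank on any coverslip, so its signs rest on a level that includes false decoding. These differences between the sexes were not tested, and none of the 3 genes was called over all coverslips in the comparison named.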

How the results depend on the processing

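In the comparison with all other kept cells, totals gave 19 higher and 15 lower genes and TMM factors 18 lower ones. Against Pdgfrb-gated cells, 12 were higher with either scaling, and 17 (TMM) and 21 (totals) lower, or 19 lower with at least 8 Pdgfrb counts. Between surroundings, higher calls were 23 by volume, 32 with totals, 21 at a radius of 200 units, and 8 both without the replicate block and at 16 or more Cldn5 counts. Lower calls there were 11 by volume, with totals and with Pdgfrb and Csf1r at 0, and 13 without the replicate block. Without the replicate block, the other comparisons had 10 higher and 26 lower genes (other kept cells), 6 and 26 (Pdgfrb-gated) and 25 and 28 (edge). Near the edge, Pdgfrb and Csf1r at 0 gave 23 higher and 26 lower. The endothelial share was 4.20% and 2.83% at 4 and 16 Cldn5 counts and 3.84% with at least 50 counts per cell.

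Directions turned for genes that were not called, apart from Ctnnb1 between surroundings (0.014 with totals). Tcf7l2 against other kept cells was at 0.079 (TMM) and 0.25 (totals). Against Pdgfrb-gated cells, TMM factors and totals turned Lrp6 (0.18 and 0.13), Tcf7l1 (0.50 and 0.45) and Porcn (0.090 and 0.044). At least 8 Pdgfrb counts turned Lrp5 (-0.37), Lrp6 (0.074) and Porcn (0.00099), and Pdgfrb and Csf1r at 0 turned Lrp5 (-0.0072). Cx3cl1 there was at -0.044 without the replicate block, -0.093 at 16 Cldn5 counts, -0.029 without low-signal squares and -0.10 to 0.19 with 1 coverslip left out.

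Near the edge, Tcf7 and Lef1 were at 0.13 and 0.11 by volume and at 0.022 and 0.041 with Pdgfrb and Csf1r at 0. The median over all 136 genes was 0.15 by volume and 0.041 with Pdgfrb and Csf1r at 0. Lrp5 was at -0.037 at 16 Cldn5 counts, and Lrp6 at -0.016 with limits of 50 and 300 units and -0.070 to 0.12 with 1 coverslip left out. Between surroundings, Fzd6 and Lrp6 were at 0.076 and 0.13 by volume, 0.12 and 0.19 with totals, and 0.10 and 0.14 with Pdgfrb and Csf1r at 0. Porcn was at 0.048 with totals, Tcf7 and Wnt7b at -0.0047 and -0.23 at a radius of 200 units, and Lrp6 and Wnt7b at 0.081 and -0.034 at 16 Cldn5 counts. With 1 coverslip left out, Lrp6 lay between -0.12 and 0.063 and Wnt7b between -0.055 and 0.19.

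Between the sexes, volume gave Fzd4 0.19, Lrp5 0.30, Adgra2 0.35, Tcf7 0.38, Ctnnb1 0.35, Wls 0.015 and Id1 0.37. The median over all 136 genes moved with this scaling from -0.01 to 0.42, and each of these values lay below 0.42. With 1 coverslip left out, the ranges were -0.47 to 0.031 (Fzd4), -0.10 to 0.023 (Adgra2), -0.14 to 0.31 (Reck), -0.22 to 0.098 (Tcf7), -0.12 to 0.16 (Lef1), -0.15 to 0.023 (Ctnnb1), -0.048 to 0.26 (Cx3cl1) and -0.20 to 0.093 (Id1). The cause was not tested.

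Sex gave 0 calls under each alternative. Squares of low signal were left out in an alternative chosen after seeing the data, and no count of calls moved by more than 1.5 times. Depth limits the genes near the blanks: 78 of 140 exceeded every blank on each coverslip in endothelial cells.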
